A study of Mus musculus with 11 samples.

Results

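The 10 genes described here encode adhesion G protein-coupled receptors other than the latrophilins: Adgrf5, Adgrg6, Adgra3, Adgrg1, Adgre5, Adgrb1, Adgrb2, Adgrb3, Celsr2 and Adgra1. They were chosen by name, and all 10 were found among the 45802 genes of the deposited files and passed the filter on low values that left 15604 genes for testing. RNA bound to ribosomes tagged in endothelial cells was sequenced in 11 libraries from adult C57BL/6 mice. All animals carried a ribosomal protein, L10a, fused to eGFP and driven by the promoter of VE-cadherin (Cdh5), a junction gene of endothelial cells, and tagged ribosomes were pulled down with anti-GFP beads. The 4 groups were GL261 tumours of Eltd1-/- mice (knockout tumour, n = 2), GL261 tumours of wild type mice (n = 3), brain of healthy wild type mice (n = 3) and brain of healthy Eltd1-/- mice (knockout brain, n = 3). GL261 is a mouse glioma cell line, injected into the brain. Eltd1, now named Adgrl4, is itself an adhesion receptor of endothelial cells, and the part of the gene that was disrupted is not given in the labels. Per the protocol, 3 mouse samples of each group went into libraries, and of the knockout tumours 2 libraries are described. The labels do not say whether a library is 1 animal or a pool, so each SD and p-value measures the spread between libraries.

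Adhesion receptors have a long extracellular part that binds matrix or neighbouring cells, a domain that cuts the protein into 2 fragments during maturation in most members, and the membrane-spanning part of a G protein-coupled receptor. Binding at the outside can expose a tethered peptide that activates the receptor, which then signals through G alpha subunits and their effectors. In brain the family is known for roles in synapses, myelin and cortical development, and a few members, among them Adgrf5 and Adgrl4, are prominent in blood vessel endothelium.

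Levels are given as FPKM, in which fragments are divided by transcript length and by the size of the library, so that levels of different receptors can be set side by side. Log2 changes are differences of log2(FPKM + 1), which understates changes of low genes. They come from 1 limma fit over all 11 libraries and 15604 genes, with p-values adjusted by Benjamini-Hochberg within each contrast and a threshold of 0.05. The files hold no read counts, so the depth of the libraries is unknown and no counting error can be given.

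The libraries summed to between 477911 and 641665 FPKM. Adgrl4, the targeted gene, was at 166, 82.7 and 153 FPKM in wild type brain and at 21.6, 23.6 and 22.2 in knockout brain, and at 45.0, 192 and 27.4 in wild type tumours against 11.5 and 5.82 in knockout tumours, so that the genotypes did not overlap in either tissue. In brain, the summed FPKM of 13 endothelial markers was 1341 to 2015, while that of 10 neuron markers was 4742 to 6509; Cdh5 itself was at 25.8 to 56.4 FPKM and the neuronal gene Snap25 at 2457 to 3814. In tumours the endothelial sum was 301 to 812 and the neuronal sum 98.2 to 2853. Endothelial markers were thus present in every library, and brain libraries held more FPKM of neuron markers than of endothelial ones. No library of RNA from before the pull-down is among the 11, so enrichment by the pull-down could not be measured. In pull-downs such as these, fewer cells of a type, less RNA per cell and a change in RNA held from untagged cells cannot be told apart. The third wild type tumour library held the most Snap25 of the tumours, at 2083 FPKM. The second wild type tumour library had 38.1% of the 14366 genes with a mean of at least 1 FPKM listed at 0, against 5.16% to 20.5% in the others. A listed 0 can be a failed estimate, since 4 of the 13 mitochondrial mRNAs are at 0 in all libraries, so no mean ± SD is given for a group with a listed 0. Ranks, shares and log2 changes take such a library at its listed value.

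Tumour and brain differed in the levels of most of the 10 receptors. Adgrg6 and Adgra3 rose in tumours and 7 receptors fell, namely Adgrf5, Adgrg1, Adgre5, Adgrb1, Adgrb2, Adgrb3 and Adgra1, in the mean of both genotypes. The change of Celsr2, which was lower in tumours by its mean, did not pass the test. Among all genes tested, 12.6% rose and 17.6% fell in the same contrast. Every tumour library lay above every brain library for the same 2 receptors that rose, a pattern shown by 8.73% of all genes, and every tumour library lay below every brain library for the same 7 that fell, shown by 12.3%. The median log2 change of the 10 receptors was -1.91, beside -0.25 over all genes tested. The count of receptors that fell was 4 without the first knockout tumour library and 7 without the second and the third wild type tumour libraries together. It was 0 when each library was centred on the mean log2 value of the 13 endothelial markers, a setting that moved the median of all genes from -0.25 to 1.21. The 2 that rose also passed in that setting, in which 7293 of all 15604 genes rose and 229 fell.

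**Figure D1:**
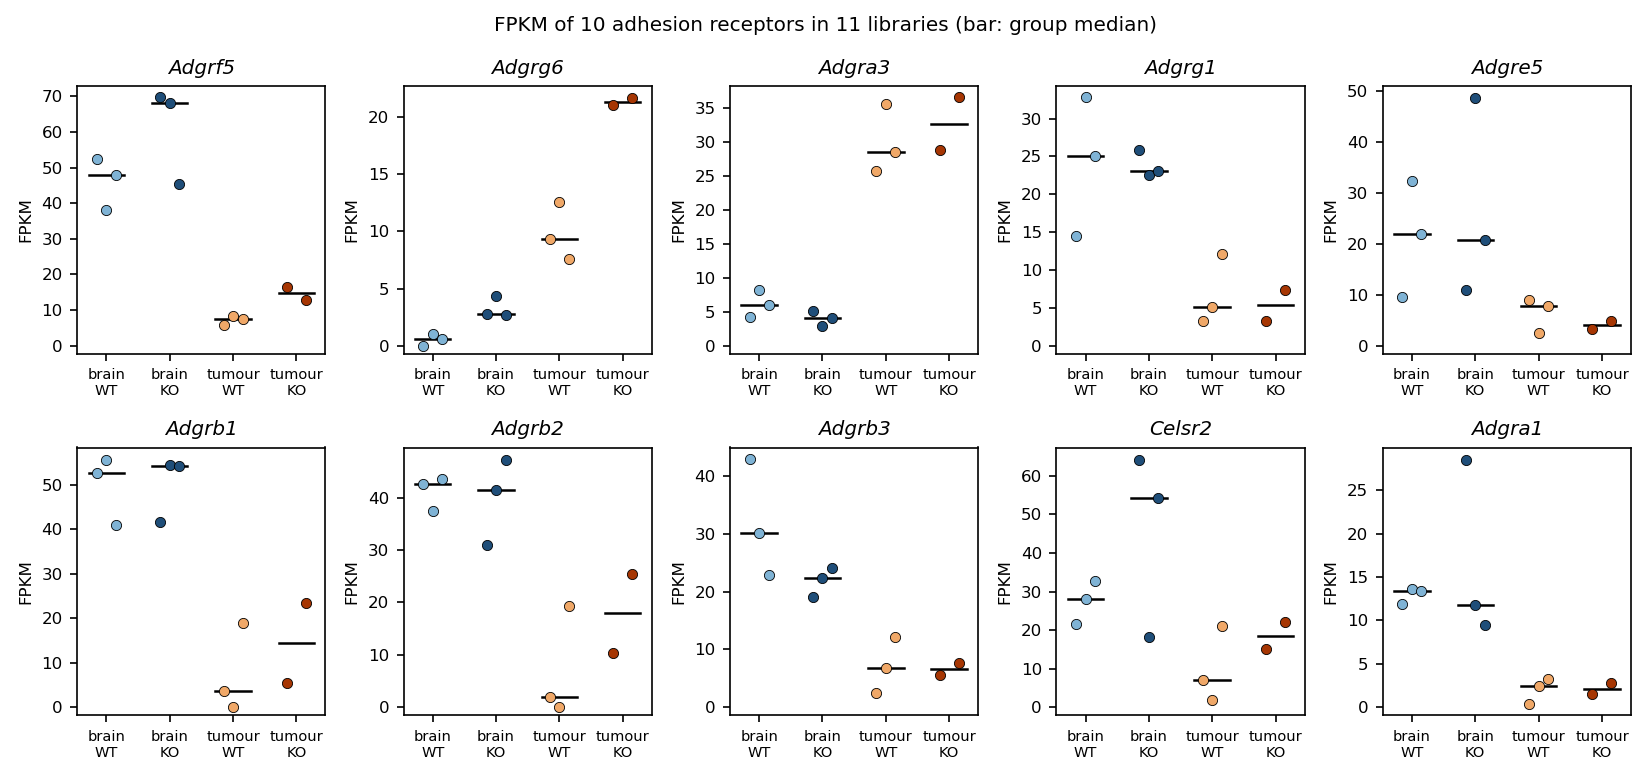
FPKM of each receptor (y axis, linear, with its own scale in each panel) in the 4 groups of tissue and genotype. Each point is 1 library and the bar is the group median. Adgrg6 and Adgra3 are higher in all tumour libraries, and 7 of the others are lower in all tumour libraries, while the groups of Celsr2 overlap.

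Adgra3 and Adgrg6 were among the lowest of the 10 receptors in brain and the highest in tumours. By mean FPKM, Adgra3 ranked 9 and Adgrg6 ranked 10 in brain, and they ranked 1 and 2 in tumours, where Adgrf5, first in brain, ranked 6. The 10 receptors summed to 252 to 299 FPKM in brain and to 68.6 to 165 in tumours. Adgra3 and Adgrg6 together made up 1.67% to 3.35% of that sum in brain and 26.1% to 64.1% in tumours. Adgrf5 made up 13.7% to 23.3% in brain and 5.43% to 14.96% in tumours. Adgrb1, Adgrb2 and Adgrb3 together made up 30.7% to 54.8% in brain and 9.08% to 36.5% in tumours, and their 2 highest tumour shares, 36.5% and 34.4%, were in the third wild type and the second knockout library.

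**Figure D2:**
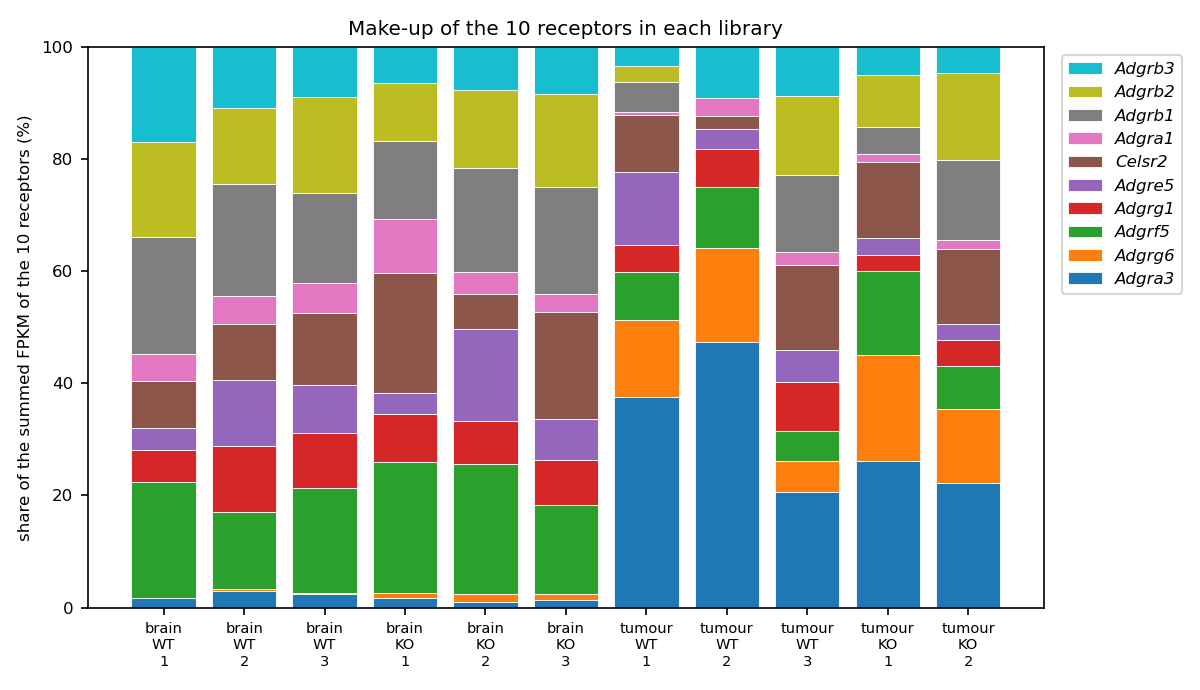
Share of each receptor in the summed FPKM of the 10 receptors (y axis, percent) in each of the 11 libraries (x axis, 1 bar each). The lowest segments, Adgra3 and Adgrg6, fill 1.67% to 3.35% of the brain bars and 26.1% to 64.1% of the tumour bars.

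The regions around the annotated starts of these receptors were read from RefSeq's table of build GRCm38.p6, 250 bases before to 50 after each start, which held 10 windows for 8 of the 10 receptors. An annotated start need not be the outer end of a gene. The windows of Adgrg6, Adgrb3, Celsr2 and Adgrg1, and the second of Adgrf5, lay wholly inside the spans given below for these genes. The windows of 3 receptors, for Adgrf5 the first of 2, are shown because these genes moved most clearly with tissue: the pair that rose, Adgrg6 and Adgra3, and the endothelial receptor that fell, Adgrf5. Each is printed 5′ to 3′ on the strand of its gene, with every CpG dinucleotide in capitals.
Adgrg6, chr10:14544987-14545286, minus strand: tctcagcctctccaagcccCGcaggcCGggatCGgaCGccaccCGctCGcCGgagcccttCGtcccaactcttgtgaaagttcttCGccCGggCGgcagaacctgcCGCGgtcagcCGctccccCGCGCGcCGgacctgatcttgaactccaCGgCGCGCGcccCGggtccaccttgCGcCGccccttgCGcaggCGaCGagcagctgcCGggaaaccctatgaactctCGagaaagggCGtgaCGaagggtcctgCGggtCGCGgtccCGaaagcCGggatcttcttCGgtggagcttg
Adgra3, chr5:50058947-50059246, minus strand: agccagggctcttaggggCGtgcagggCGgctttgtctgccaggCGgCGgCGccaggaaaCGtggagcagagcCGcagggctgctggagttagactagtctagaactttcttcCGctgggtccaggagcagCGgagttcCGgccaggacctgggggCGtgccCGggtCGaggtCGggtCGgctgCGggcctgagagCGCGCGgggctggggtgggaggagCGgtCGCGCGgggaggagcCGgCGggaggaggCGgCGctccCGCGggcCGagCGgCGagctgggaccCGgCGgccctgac
Adgrf5, chr17:43360181-43360480, plus strand: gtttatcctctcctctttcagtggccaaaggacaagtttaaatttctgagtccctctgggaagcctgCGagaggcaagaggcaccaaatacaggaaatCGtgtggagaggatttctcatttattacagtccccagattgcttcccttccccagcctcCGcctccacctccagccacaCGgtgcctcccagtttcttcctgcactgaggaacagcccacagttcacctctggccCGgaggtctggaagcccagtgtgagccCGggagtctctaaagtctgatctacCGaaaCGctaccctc
The Adgrg6 window held 38 CpG and 69% G or C, and the Adgra3 window 34 CpG and 74%. The Adgrf5 window shown held 8 CpG and 54.3%, and its other window, chr17:43389216-43389515, held 8 CpG and 47.3%. Over all 32851 windows the medians were 7 CpG and 52.7%. CpG-rich starts were not particular to the receptors that rose, since the windows of Adgrb2 and Celsr2 held 45 and 40 CpG, and those of Adgrb3, Adgra1 and Adgrg1 held 16, 17 and, for its 2 windows, 7 and 6. CCGGAAG, a form of the site that ETS factors of endothelial cells bind, and CTTTGAT, a form of the TCF/LEF site, were searched on both strands. Neither exact sequence occurred in any of the 10 windows, against 8.86% and 3.73% of all windows. Other forms of these sites were not searched, so the windows may still hold sites for these factors. At such percentages, 10 windows are too few to set the receptors apart from all windows.

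Adgrg6 (chr10:14402583-14545723), also known as Gpr126, is required for Schwann cells to form myelin and binds collagen IV. Its log2 change was the largest rise of the 10 receptors in wild type mice and in the mean of both genotypes, while in knockout mice that of Adgra3 was larger. Its FPKM was 0, 1.03 and 0.546 in wild type brain, 2.73, 4.38 and 2.73 in knockout brain, 9.37, 12.5 and 7.61 in wild type tumours, and 21.0 and 21.6 in knockout tumours. The 4 groups did not overlap, and their order was wild type brain, knockout brain, wild type tumour and knockout tumour. The mean was 3.28 ± 0.955 (SD, n = 3) in knockout brain, 9.84 ± 2.50 (SD, n = 3) in wild type tumours and 21.3 ± 0.432 (SD, n = 2) in knockout tumours. The log2 change of Adgrg6 in tumours was 2.63 (SE 0.41, limma adjusted p = 0.000993) in the mean of both genotypes, 2.86 (SE 0.55, adjusted p = 0.00598) in wild type and 2.40 (SE 0.61, adjusted p = 0.0380) in knockout mice. The call in wild type mice was lost in a fit of the compared groups alone. In knockout mice it was lost with a pseudocount of 0.1, without the third wild type brain library and without any one of the knockout brain libraries. Without the first or the second knockout tumour, which leaves 1, the change in knockout mice was 2.42 or 2.38.

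Adgra3 (chr5:49959951-50058996), also known as Gpr125, has been linked to planar polarity in zebrafish and marks stem and progenitor cells of the mouse testis. Its FPKM was 4.21, 8.27 and 6.01 in wild type brain, 5.15, 2.96 and 4.13 in knockout brain, 25.8, 35.6 and 28.6 in wild type tumours, and 28.8 and 36.6 in knockout tumours. Tissue separated the libraries completely, and the genotypes overlapped within each tissue. The mean rose from 6.16 ± 2.03 to 30.0 ± 5.07 FPKM in wild type mice (SD, n = 3 each) and from 4.08 ± 1.09 (SD, n = 3) to 32.7 ± 5.50 (SD, n = 2) in knockout mice. Its log2 change was 2.44 (SE 0.34, limma adjusted p = 0.000475) in the mean of both genotypes, 2.14 (SE 0.45, adjusted p = 0.00938) in wild type and 2.74 (SE 0.51, adjusted p = 0.00867) in knockout mice. The call in wild type mice was lost in a fit of the compared groups alone. Without the first or the second knockout tumour, which leaves 1, the change in knockout mice was 2.91 or 2.58.

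From brain to tumour, markers of several cell types rose together with Adgrg6 and Adgra3. In the mean of both genotypes 7 of 8 oligodendrocyte progenitor or glioma markers rose, from summed FPKM of 77.3 to 122 in brain to 337 to 518 in tumours, and 7 of 10 microglia and macrophage markers rose, from 42.6 to 71.6 up to 116 to 303. Of the 6 mural cell markers tested 1 rose, and their median log2 change was 0.17. The sums of the mural list were 6.94 to 28.8 in brain and 18.2 to 75.8 in tumours. They include Cspg4, which is also in the oligodendrocyte progenitor or glioma list. Within the tumour libraries these sums did not always order as the receptors did. The first wild type tumour had the highest oligodendrocyte progenitor or glioma sum, 518 FPKM, and the lowest Adgra3, 25.8 FPKM. By contrast, the knockout tumours had both the highest microglia and macrophage sums and the highest Adgrg6. The part of any of these cell types in the rise was not tested. Endothelial markers moved the other way, with 9 of 13 lower in tumours and none higher. Centring each library on their mean raised the log2 changes to 4.10 for Adgrg6 (limma adjusted p = 2.06e-05) and 3.91 for Adgra3 (adjusted p = 9.21e-06). That setting raised most genes: 7293 of all 15604 passed as higher in tumours, and their median log2 change was 1.21.

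Adgrf5 (chr17:43360329-43459557), also known as Gpr116, is expressed in endothelium and in the lung epithelium, where it limits surfactant. It was the receptor with the highest mean in brain. Its FPKM was 52.4, 38.2 and 47.9 in wild type brain, 69.7, 68.1 and 45.5 in knockout brain, 5.95, 8.26 and 7.52 in wild type tumours, and 16.5 and 12.8 in knockout tumours. All tumour libraries were below all brain libraries. Both knockout tumours were above all wild type tumours, while the genotypes overlapped in brain. The mean fell from 46.1 ± 7.26 to 7.24 ± 1.18 FPKM in wild type mice (SD, n = 3 each) and from 61.1 ± 13.6 (SD, n = 3) to 14.7 ± 2.63 (SD, n = 2) in knockout mice. The log2 change was -2.24 (SE 0.27, limma adjusted p = 0.000202) in the mean of both genotypes, -2.51 (SE 0.37, adjusted p = 0.00130) in wild type and -1.97 (SE 0.41, adjusted p = 0.0156) in knockout mice. In knockout mice the call was lost under upper quartile scaling, after centring on the endothelial markers and without the first or the second knockout brain library. Without the first or the second knockout tumour, which leaves 1, the change there was -2.14 or -1.80.

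Endothelial markers fell together with Adgrf5. Their mean log2(FPKM + 1) was 3.96 to 5.11 in tumours and 5.81 to 6.57 in brain. The first knockout library of each tissue was the highest of that tissue both in this mean and in Adgrf5. The lowest libraries differed. In brain the mean was lowest in the first wild type library and Adgrf5 in the second. In tumours the mean was lowest in the third wild type library and Adgrf5 in the first. The part of endothelial RNA in the fall was not tested. Relative to those markers the log2 change of Adgrf5 in tumours was -0.77, which did not pass (limma adjusted p = 0.0591). In that setting the median of all genes was 1.21, and 229 of 15604 genes passed as lower in tumours. Genes with a pattern most like that of a receptor were ranked by Pearson's r of log2(FPKM + 1) over the 11 libraries, a description of libraries that share the difference between tissues. For Adgrf5 they were Clic5 (r = 0.986), Bmpr2 (r = 0.986), a receptor for bone morphogenetic proteins, and Flt1 (r = 0.985), a VEGF receptor that is among the 13 markers. For Adgra3 they were Kif20b (r = 0.989), a mitotic kinesin, and Gfpt1 (r = 0.984), and for Adgrg6 they were Cdk1 (r = 0.959), the kinase of mitosis, Nup155 (r = 0.955) and Lmf2 (r = 0.946).

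Adgrg1 (chr8:94974756-95014208), also known as Gpr56, guides development of the cortex and of oligodendrocyte precursors and binds collagen III. Its FPKM was 14.5, 32.8 and 25.0 in wild type brain, 25.8, 22.5 and 23.1 in knockout brain, 3.23, 5.08 and 12.1 in wild type tumours, and 3.26 and 7.42 in knockout tumours. Its mean was 3.85 times higher in brain than in tumours, and the highest tumour library, the third wild type, stayed below the lowest brain library. The log2 change of Adgrg1 was -1.91 (SE 0.42, limma adjusted p = 0.00586) in the mean of both genotypes and -1.78 (SE 0.55, adjusted p = 0.0438) in wild type mice. The call in wild type mice passed in 6 of 21 other settings, and it was lost with no filter, a pseudocount of 0.1, either scaling alternative, the compared groups alone, centring on the endothelial markers and 9 of the 11 fits that leave out 1 library. In knockout mice it was -2.05 (SE 0.62, adjusted p = 0.0684), which did not pass. Markers of glial cells moved in both directions in the mean of both genotypes. Of 8 oligodendrocyte markers 6 fell, from summed FPKM of 860 to 1108 in brain to 280 to 870 in tumours. Of 10 astrocyte markers 6 fell and 1 rose, with sums of 1135 to 1826 and 300.5 to 854. By contrast, 7 of 8 oligodendrocyte progenitor or glioma markers and 7 of 10 microglia and macrophage markers rose. The part of these cells in the Adgrg1 values was not tested.

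Adgre5 (chr8:83723245-83741311), better known as CD97, is a receptor of leukocytes that binds CD55. Its FPKM was 9.63, 32.4 and 21.9 in wild type brain, 10.9, 48.7 and 20.8 in knockout brain, 9.04, 2.56 and 7.80 in wild type tumours, and 3.27 and 4.86 in knockout tumours. The brain libraries spread widely, and the lowest of them was just above the highest tumour library. The log2 change of -1.90 (SE 0.51, limma adjusted p = 0.0160) passed in the mean of both genotypes, while the changes of -1.56 in wild type (adjusted p = 0.126) and -2.23 in knockout mice (adjusted p = 0.0980) did not. It also did not pass in the mean under upper quartile scaling or without the first knockout tumour library, nor without the second and the third wild type tumours together (-1.62, adjusted p = 0.0603). Markers of microglia and macrophages rose in tumours, as given above. Of 3 lymphocyte markers tested 1 rose, and the summed FPKM of all 7 listed was 0 to 5.18 in brain and 16.5 to 39.2 in tumours, with Cd3e at 0 in every library. The part of these cells in the Adgre5 values was not tested.

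The Adgrb receptors, first named brain-specific angiogenesis inhibitors, are expressed by neurons, where they act at synapses, and Adgrb1 also serves as an engulfment receptor for dying cells. Their FPKM fell in tumours and spread widely among the tumour libraries. Adgrb1 (chr15:74516196-74589465) was at 52.8, 55.6 and 41.0 in wild type brain, 41.7, 54.5 and 54.4 in knockout brain, 3.58, 0 and 19.0 in wild type tumours, and 5.37 and 23.4 in knockout tumours. Adgrb2 (chr4:129984773-130022633) was at 42.5, 37.5 and 43.5 in wild type brain, 31.0, 41.5 and 47.2 in knockout brain, 1.95, 0 and 19.3 in wild type tumours, and 10.3 and 25.5 in knockout tumours. For both receptors the same tumour libraries, the third wild type and the second knockout, were the highest, and the second wild type was listed at 0. Adgrb3 (chr1:25067476-25834772), which binds C1q-like proteins, was at 43.0, 30.2 and 22.9 in wild type brain, 19.1, 22.4 and 24.2 in knockout brain, 2.38, 6.82 and 12.2 in wild type tumours, and 5.53 and 7.69 in knockout tumours. All 3 receptors were lower in every tumour than in every brain library.

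The log2 change of Adgrb1 was -2.75 (SE 0.66, limma adjusted p = 0.00971) in the mean of both genotypes, that of Adgrb2 was -2.32 (SE 0.65, adjusted p = 0.0192) and that of Adgrb3 was -1.89 (SE 0.41, adjusted p = 0.00562). In wild type mice the falls of -3.48, -3.43 and -2.18 passed for Adgrb1, Adgrb2 and Adgrb3 (limma adjusted p = 0.0195, 0.0187 and 0.0177). Those of Adgrb1 and Adgrb2 include the second wild type tumour, listed at 0. Without it they were -2.396 and -2.44 (limma adjusted p = 0.0386 and 0.0425), and without the third wild type tumour they were -4.56 and -4.61 (adjusted p = 0.00135 and 0.000433). Without the first wild type tumour they were -3.49 and -3.22 and did not pass (limma adjusted p = 0.0540 and 0.0615), nor did either pass with a pseudocount of 0.1 or with the compared groups alone. Neither passed after centring on the endothelial markers or without the first wild type brain library. Adgrb1 also did not pass without the second wild type brain library, nor Adgrb2 without the third (limma adjusted p = 0.0560 and 0.0501). The fall of Adgrb3 in wild type mice did not pass without the first wild type tumour or the first wild type brain library (limma adjusted p = 0.0551 and 0.0607). It also did not pass with the compared groups alone or after centring on the endothelial markers. In knockout mice the changes of Adgrb1, Adgrb2 and Adgrb3, at -2.03, -1.22 and -1.60, did not pass (limma adjusted p = 0.229, 0.477 and 0.132). Without the first knockout tumour library neither Adgrb1 nor Adgrb2 passed in the mean of both genotypes, and Adgrb2 also did not pass with a pseudocount of 0.1. Without the second and the third wild type tumours together, which leaves 1 wild type tumour library and takes its spread from the remaining groups, the mean changes were -2.74 for Adgrb1, -2.53 for Adgrb2 and -2.42 for Adgrb3, all of which passed (limma adjusted p = 0.00188, 0.000916 and 0.000962).

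Neuron markers moved with the Adgrb receptors. Of the 10 markers 9 fell in tumours, and their summed FPKM in tumours was 679 and 1389 in the knockout libraries and 98.2, 419 and 2853 in the wild type ones. Snap25, a synaptic vesicle fusion protein, was at 252 and 631 FPKM in knockout tumours and at 54.3, 52.2 and 2083 in wild type tumours, so that the 2 tumour libraries with the most Snap25 were those with the most Adgrb1 and Adgrb2. The part of neuronal RNA in these falls was not tested. The nearest patterns were those of Slc24a2 (r = 0.995), Sv2a (r = 0.994), a synaptic vesicle protein, and Cx3cl1 (r = 0.994) for Adgrb1, of Prkcb (r = 0.987), Syp (r = 0.986), the vesicle protein synaptophysin, and Pde1a (r = 0.985) for Adgrb2, and of Robo1 (r = 0.984), an axon guidance receptor, Ankrd46 (r = 0.983) and Ppp3r1 (r = 0.978) for Adgrb3.

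**Figure D3:**
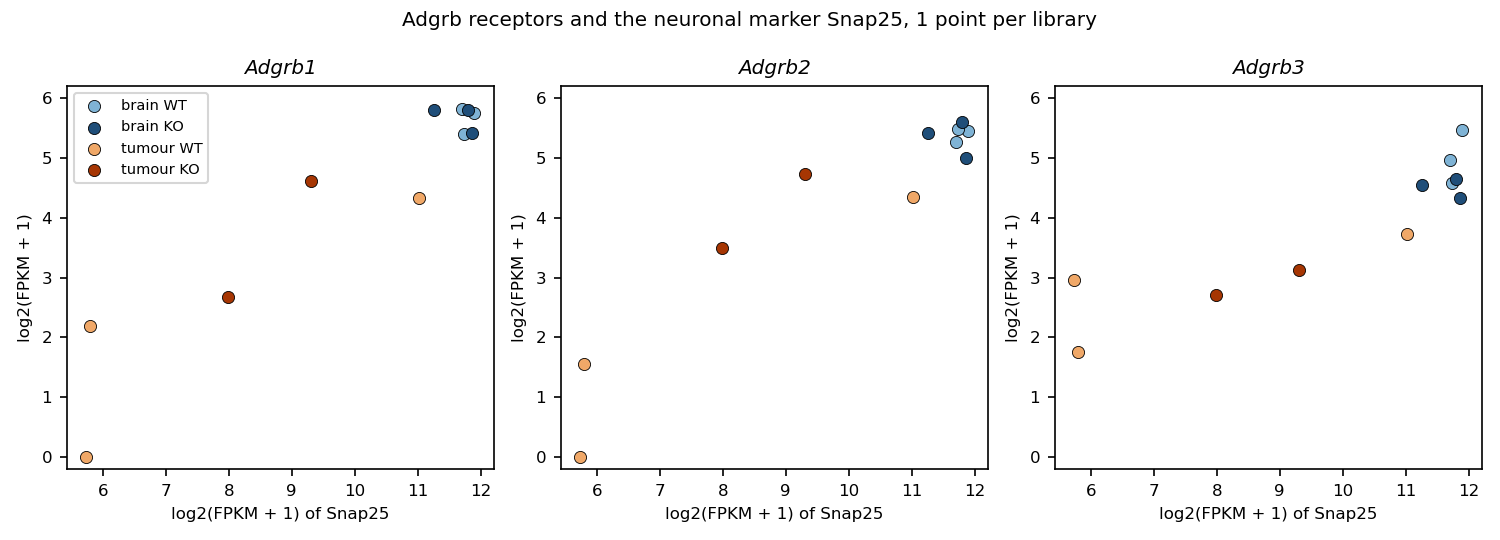
Log2(FPKM + 1) of Adgrb1, Adgrb2 and Adgrb3 (y axes) against that of the neuronal marker Snap25 (x axes), with 1 point per library coloured by group. Brain libraries form a cluster at the upper right, and the tumour libraries spread below it, with the third wild type and the second knockout library nearest to the brain cluster for Adgrb1 and Adgrb2.

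Celsr2 (chr3:108390848-108416069), a cadherin-like receptor of planar cell polarity that acts in neurons and in the ependyma, was the receptor whose tissues overlapped. Its FPKM was 21.5, 28.04 and 32.6 in wild type brain, 64.2, 18.2 and 54.2 in knockout brain, 6.98, 1.80 and 21.2 in wild type tumours, and 15.02 and 22.04 in knockout tumours. The second knockout brain library was below the third wild type and the second knockout tumour. The log2 change in the mean of both genotypes was -1.46 (SE 0.53, limma adjusted p = 0.0575, 95% interval -2.62 to -0.30), which did not pass, and it was -1.82 in wild type (adjusted p = 0.0924) and -1.09 in knockout mice (adjusted p = 0.430). Without the second and the third wild type tumours together it was -1.45 and passed (limma adjusted p = 0.0356), and it passed in 4 of 20 settings in all. Pcdh7 (r = 0.968), a protocadherin, Thrsp (r = 0.966) and Igfbp5 (r = 0.960) had the nearest patterns.

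Adgra1 (chr7:139834097-139878088), also known as Gpr123, is expressed in brain and its role is little known. Its FPKM was 11.9, 13.7 and 13.4 in wild type brain, 28.5, 11.8 and 9.53 in knockout brain, 0.356, 2.43 and 3.23 in wild type tumours, and 1.498 and 2.75 in knockout tumours. Its mean was 7.21 times higher in brain than in tumours, the largest such ratio among the receptors that fell. The log2 change of Adgra1 was -2.37 (SE 0.48, limma adjusted p = 0.00400) in the mean of both genotypes and -2.37 (SE 0.63, adjusted p = 0.0240) in wild type mice. In knockout mice it was also -2.37 and did not pass (SE 0.71, adjusted p = 0.0660). The call in wild type mice was lost under quantile normalization, with the compared groups alone and after centring on the endothelial markers. It was also lost without the first wild type tumour library and without any one of the wild type brain libraries. The nearest patterns of Adgra1 were those of Abcb1a (r = 0.976), a drug efflux pump of the blood-brain barrier, Nlgn1 (r = 0.970), a synaptic adhesion protein, and Sncb (r = 0.965). For Adgrg1 they were those of Gstm1 and Fbxw7, with r of 0.981 for the first, and for Adgre5 those of Fbxo33, Rnf220 and Rnf13, with r of 0.957 for the first.

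The changes with tissue were also fitted within each genotype, and no receptor passed the test of the difference between the genotypes. In wild type mice 2 receptors rose and 6 fell, beside 7.7% and 11.7% of all genes. In knockout mice 2 rose and 1 fell, beside 4.79% and 2.29% of all genes. That test, an interaction term, called none of the 10 receptors (limma, 0 of 10 also at an unadjusted p under 0.05), and it called 0.00641% of all genes. At an unadjusted p under 0.05 were 496 of all 15604 genes. For Adgrb2 the difference was estimated at 2.205 with a 95% interval of -0.63 to 5.04. Which genotype had more passing receptors turned with the setting. With the compared groups alone 0 rose and 1 fell in wild type mice, against 2 and 3 in knockout mice. The count of 6 that fell in wild type mice was 1 without the first wild type tumour, 2 without the first wild type brain and 3 without the second or the third. Without the second and the third wild type tumours together 1 rose and 6 fell in wild type mice, as Adgra3 no longer passed (1.94, limma adjusted p = 0.0599), and 2 rose and 5 fell in knockout mice. In knockout mice no receptor passed in either direction without either one of the tumour libraries. Each of these fits leaves 1 tumour library in the arm, for which the other groups supply the spread. The count that rose there was 1 without any one of the knockout brain libraries or without the third wild type brain library, and the count that fell was 3 without the second or the third wild type tumour and 0 without the first or second knockout brain library.

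**Figure D4:**
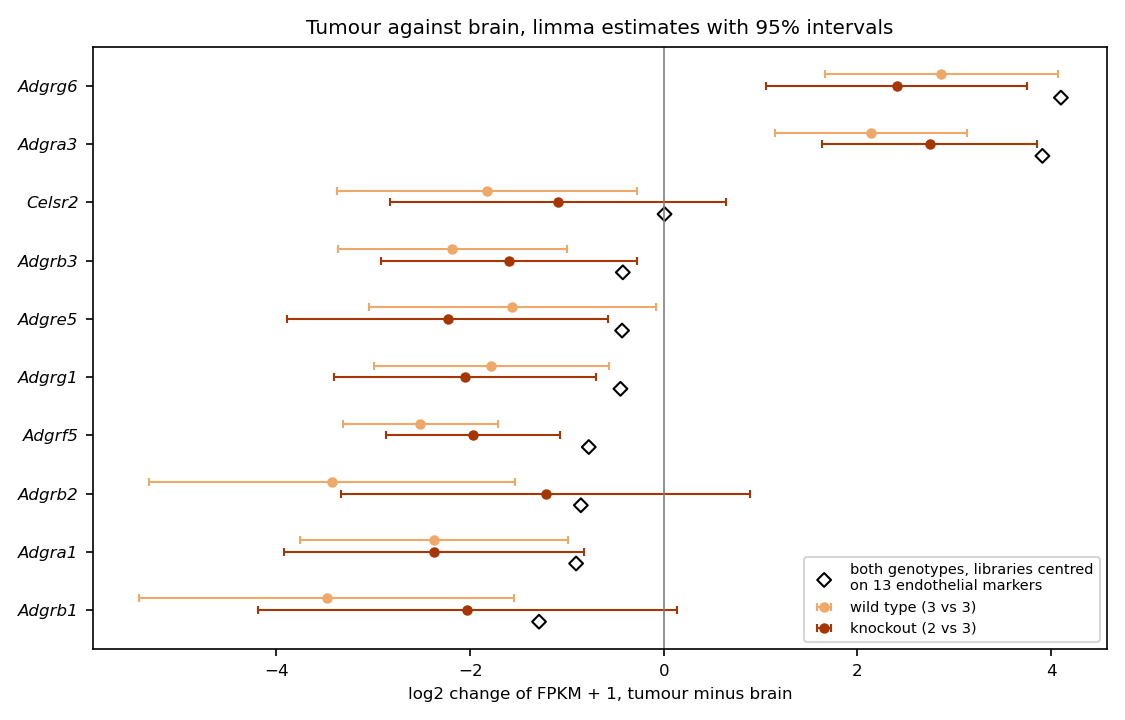
Log2 change of FPKM + 1 from brain to tumour (x axis) for each receptor (y axis), in wild type and in knockout mice, as limma estimates with 95% intervals. Open diamonds give the mean of both genotypes after centring each library on the 13 endothelial markers. Adgrg6 and Adgra3 lie to the right in all 3, at 4.10 and 3.91 after centring, where the other 8 lie between -1.29 and 0.01. The median of all genes after centring was 1.21.

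The comparison of knockout with wild type asks whether loss of 1 adhesion receptor of endothelial cells, Adgrl4, goes with a change of the others. No receptor passed in tumour, in brain or in the mean of both tissues, where limma called 0.0192%, 0.00641% and 0.00641% of all genes. At an unadjusted p under 0.05, 2 of the 10 receptors lay below it in tumour, 1 in brain and 2 in the mean. Of the 15604 genes, 485, 679 and 529 did so.

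Adgrg6 was the receptor whose genotypes stood apart in both tissues. Both knockout tumours and all 3 knockout brain libraries lay above every wild type library of the same tissue, a pattern shown by 0.532% of all genes. In brain alone, 1 of the 10 receptors did not overlap between the genotypes, beside 8.52% of all genes, and in tumour 2 did not, Adgrg6 and Adgrf5, beside 15.4%. The log2 difference of Adgrg6, knockout minus wild type, was 1.07 in tumour (SE 0.61, 95% interval -0.28 to 2.41), 1.53 in brain (SE 0.55, 95% interval 0.32 to 2.73) and 1.30 in the mean (SE 0.41, 95% interval 0.39 to 2.199). The unadjusted p was 0.0173 in brain and 0.00884 in the mean, and neither passed (limma adjusted p = 1 and 0.998). Centred on the endothelial markers the mean difference was 0.81. Endothelial markers summed to 1450 to 2015 FPKM in knockout brain and 1341 to 1535 in wild type brain, and the mural markers to 14.9 to 28.8 against 6.94 to 25.0. In tumour the mural sums were 67.7 to 75.8 FPKM in knockout and 18.2 to 56.3 in wild type mice, and the microglia and macrophage sums 287 to 303 against 116 to 227. As given above, the mural sums share Cspg4 with the oligodendrocyte progenitor or glioma list. The part of any of these cell types in the Adgrg6 values was not tested.

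Adgrf5 was 0.93 higher on the log2 scale in knockout than in wild type tumours (SE 0.41, 95% interval 0.03 to 1.82, unadjusted p = 0.0431) and 0.38 higher in brain (SE 0.37), neither of which passed (limma adjusted p = 1 for both). Its mean difference of 0.66 (SE 0.27, unadjusted p = 0.0346) did not pass either, and it was 0.17 when centred on the endothelial markers. Adgrb2 differed by 2.14 in tumour (SE 0.96, unadjusted p = 0.0470, limma adjusted p = 1), which was 1.16 without the second and 3.33 without the third wild type tumour library. The mean differences of the other receptors were 1.04 for Adgrb2, 0.92 for Celsr2, 0.74 for Adgrb1, 0.18 for Adgra1, -0.08 for Adgrg1, -0.11 for Adgre5, -0.18 for Adgra3 and -0.20 for Adgrb3. The 95% intervals of these 8 all include 0 and are wide, for example -0.92 to 0.57 for Adgra3 and -0.71 to 2.19 for Adgrb1, so that differences of this size could not be detected.

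**Figure D5:**
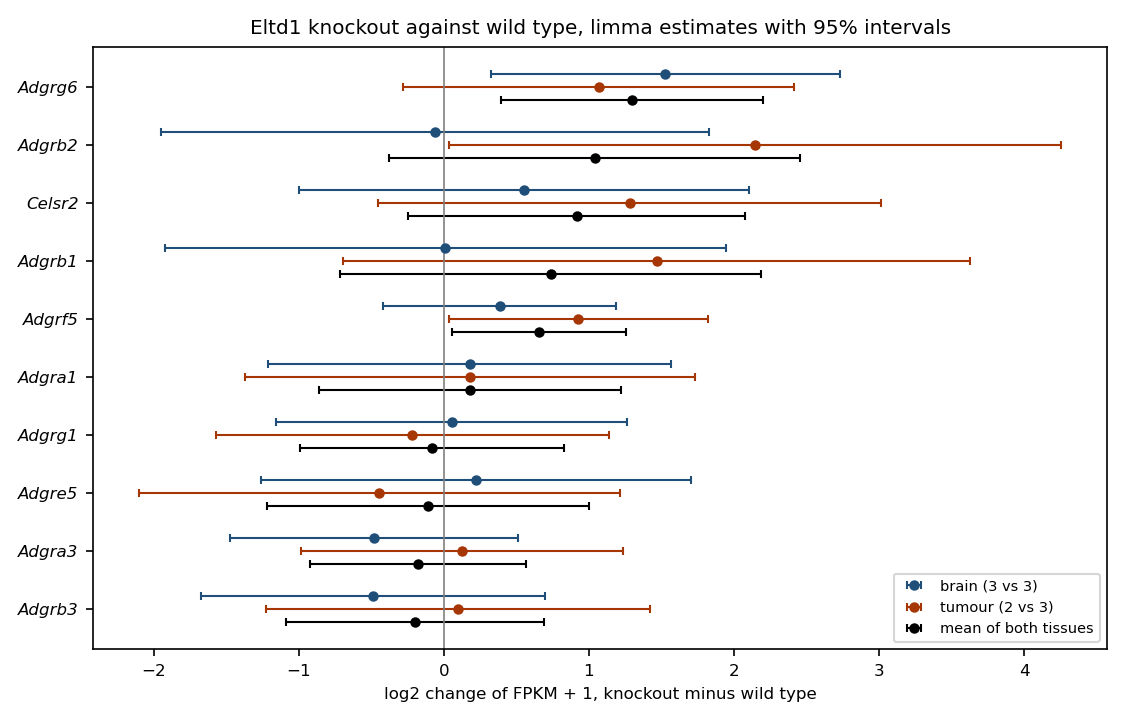
Log2 difference of FPKM + 1, knockout minus wild type (x axis), for each receptor (y axis) in brain, in tumour and in the mean of both tissues, as limma estimates with 95% intervals. The interval of the mean lies above 0 for Adgrg6 (0.39 to 2.199) and Adgrf5 (0.06 to 1.26), and no difference passed after adjustment.

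The family holds 20 further members in the files, of which 10 were tested and 7 were at 0 in all 11 libraries. In the mean of both genotypes 3 of the 10 rose and 3 fell, beside 12.6% and 17.6% of all genes, with a median log2 change of -0.76, beside -0.25. Among those that fell were the latrophilin Adgrl1 (-2.17, limma adjusted p = 0.0189) and Celsr3 (-2.13, adjusted p = 0.0205), a neuronal relative of Celsr2, and among those that rose were Adgre1 (1.66, adjusted p = 0.0295), the macrophage marker F4/80, and Adgrg3 (1.22, adjusted p = 0.0237), a receptor of granulocytes. Adgre1 was at 0 to 1.51 FPKM in brain and 0 to 7.85 in tumours, and Adgrg3 at 0 to 0.343 and 0 to 3.68. Adgrl4, the targeted gene, changed by -1.03 in wild type mice and did not pass (limma adjusted p = 0.262). Its change of -1.19 in the mean of both genotypes includes the knockout libraries and did not pass either (limma adjusted p = 0.0722). In wild type mice none rose and 3 of the 10 fell, and in knockout mice none passed in either direction. Centred on the endothelial markers, 5 rose and none fell in the mean of both genotypes, and the median turned to 0.71. Over all 15604 genes that setting gave 7293 that rose, 229 that fell and a median of 1.21.

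Of 15 proteins known to bind these receptors 13 were tested, and in the mean of both genotypes 2 rose and 4 fell in tumours, beside 12.6% and 17.6% of all genes, with a median log2 change of -0.60, beside -0.25. Col3a1, whose collagen is a ligand of Adgrg1, rose from 0 to 1.02 FPKM in brain to 15.3 to 38.2 in tumours, a log2 change of 4.06 (SE 0.43, limma adjusted p = 7.55e-05). The receptor and this ligand thus moved in opposite directions. Thy1, a partner of Adgre5 that neurons also carry, fell by 2.96 on the log2 scale (limma adjusted p = 0.00134), and Rtn4r, the Nogo receptor and a partner of Adgrb1, fell by 2.53 (adjusted p = 0.00285). Prnp, the prion protein and a ligand of Adgrg6, fell by 1.61 (limma adjusted p = 0.00348), from 79.0 to 106 FPKM in brain to 12.01 to 39.7 in tumours, while Adgrg6 rose. Within wild type mice 1 of the 13 rose and 4 fell, and within knockout mice 1 rose and 1 fell. Centred on the endothelial markers, 5 rose and 1 fell in the mean of both genotypes, with a median of 0.87. Over all 15604 genes that setting gave 7293 that rose, 229 that fell and a median of 1.21. The centred change of Prnp was -0.14 and did not pass, and that of Col3a1 was 5.52.

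Of 10 planar polarity partners of the Celsr receptors tested, 1 rose and 6 fell in the mean of both genotypes, beside 12.6% and 17.6% of all genes, with a median log2 change of -1.27, beside -0.25. The Wnt receptors Fzd3 and Fzd6 fell by 1.85 and 2.14 on the log2 scale (limma adjusted p = 0.0122 and 0.0126), and the cytoplasmic partners Dvl1 and Prickle1 fell by 1.09 and 1.45 (adjusted p = 0.0183 and 0.0197). In wild type mice 3 fell and none rose, and in knockout mice none passed. The 6 that fell in the mean were 3 under upper quartile scaling, and 0 after centring on the endothelial markers, where 2 rose and the median was 0.19. Over all 15604 genes centring gave 7293 that rose, 229 that fell and a median of 1.21.

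Of the 16 G alpha subunits, arrestins and other signalling partners, 1 rose and 6 fell in the same contrast, beside 12.6% and 17.6% of all genes, with a median log2 change of -0.61, beside -0.25. Gnas and Gnai2, the most abundant G alpha genes of the list, fell by 1.35 and 1.22 (limma adjusted p = 0.000584 and 0.000796), Gnai1 fell by 3.44 (adjusted p = 0.00283) and Elmo1, a partner of Adgrb1 in engulfment, fell by 1.25 (adjusted p = 0.00788). In wild type mice 4 of the 16 fell and in knockout mice 2 fell, and none rose in either. The median turned to 0.86 after centring on the endothelial markers, where 8 rose and 1, Gnai1, fell. Over all 15604 genes that setting gave 7293 that rose, 229 that fell and a median of 1.21. The centred values of Gnas, Gnai2 and Elmo1 were 0.12, 0.24 and 0.22. In the genotype contrasts and the interaction no gene of these 4 lists passed.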

How the data were processed

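Per the file headers, the authors deposited 1 table of FPKM per library. TopHat2 2.1.1, Cufflinks 2.2.1 and the build GRCm38 are named in the submitters' processing notes, while what each did, the annotation and whether strand was used were not stated there, so genes that overlap others are uncertain. Per the labels' protocols, RNA was depleted of ribosomal RNA and libraries were made with a stranded kit. Each table held 46073 entries, and the 482 entries of 211 repeated symbols were summed, which left 45802 genes. Whole-read steps were sought among genes under 2 FPKM, and only 0.809% to 8.00% of them lay on the most frequent ratio, so no counts were recovered.

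Limma 3.58.1 in R 4.3.3 fitted 4 group means to log2(FPKM + 1) of all 11 libraries (lmFit, contrasts.fit, eBayes with a variance trend, 7 residual degrees of freedom before moderation), for the 15604 genes with at least 1 FPKM in at least 2 libraries. The 7 contrasts were tumour minus brain in each genotype and in their mean, knockout minus wild type in each tissue and in their mean, and the interaction. Tests were two-sided, with Benjamini-Hochberg adjustment within a contrast and a threshold of 0.05. The scripts were tested on simulated data. Replicates are separate mouse samples, each 1 animal or a pool, which the labels do not say. They are numbered in accession order, and their numbers pair nothing. Where leaving out libraries left 1 in a group, the other groups supplied its spread.

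The receptors, the gene lists and the marker lists were chosen with earlier results of these data known. All 10 receptors were named, with at most 4 passing genes per list by smallest p and, per receptor, the 3 tested genes with the highest Pearson r over 11 libraries, leaving out predicted, clone-named and pseudogene symbols. Alternatives were the pseudocount (0.1), the filter (none, or 5 FPKM), upper quartile scaling, quantile normalization, a fit of the compared groups alone, library weights, the highest of repeated entries, and each library left out. Leaving out the second and the third wild type tumours together and centring on endothelial markers were added after seeing the data. A few single genes that these rules name are not reported here.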

Additional observations from a re-analysis of the deposited data

How the results depend on the processing

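The rises of Adgrg6 (2.50 to 4.10) and Adgra3 (2.34 to 3.91) in the mean of both genotypes passed in all 20 settings run. Upper quartile scaling moved the median log2 change of all genes in that contrast from -0.25 to -0.11 and quantile normalization to -0.06. The depth of the libraries is unknown, zeros can be failed estimates, and the knockout tumour arm holds 2 libraries. No receptor passed in a genotype contrast in any setting. The causes of the shifts below were not tested, except that leaving out libraries or groups also lowers the residual degrees of freedom. No paired analysis was possible because the labels give no replicate numbers shared between groups. With centring on the endothelial markers, the direction turned for Adgre5 in wild type (0.0578), Adgrb2 and Celsr2 in knockout mice (0.0903 and 0.22), Celsr2 in the mean (0.00783) and the mean genotype difference of Adgra1 (-0.31). The mean genotype differences near 0 also turned: under upper quartile scaling to 0.0679 for Adgra3, 0.15 for Adgrg1, 0.0919 for Adgre5 and 0.0555 for Adgrb3, with library weights to 0.13 for Adgrg1 and 0.28 for Adgrb3, without the second and the third wild type tumours to 0.28 for Adgrg1 and 0.33 for Adgrb3, and under quantile normalization to -0.14 for Adgra1. With each library left out in turn these ranged from -0.33 to 0.16 for Adgrg1, -0.38 to 0.13 for Adgre5, -0.46 to 0.0312 for Adgrb3 and -0.0674 to 0.34 for Adgra1.

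In wild type mice 1201 genes rose and 1823 fell. The numbers were 429 and 185 with the compared groups alone, 1978 and 2959 with library weights, 6044 and 142 after centring, 1018 and 909 under upper quartile scaling, and 1537 and 1409 under quantile normalization, and 1144 fell with a pseudocount of 0.1. Of the receptors, 0 rose and 1 fell with the compared groups alone, 3 fell with the smaller pseudocount, 0 fell after centring, and 1 rose without the second and the third wild type tumours. In knockout mice 748 genes rose and 357 fell, against 1154 and 668 under quantile normalization, 1321 and 1482 with the compared groups alone, 1864 and 2262 with weights, 1204 and 1552 without the 2 tumours, 3474 and 28 after centring, and 711 and 123 under upper quartile scaling, and 188 fell with a pseudocount of 0.1. There 1 receptor rose with that pseudocount, and the number that fell was 0 under upper quartile scaling and centring, 3 under quantile normalization and with the compared groups alone, 6 with weights and 5 without the 2 tumours. In the mean 1962 rose and 2751 fell, against 7293 and 229 after centring, when 0 receptors fell, 1953 and 1827 under upper quartile scaling, and 2518 and 2507 under quantile normalization.

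With 1 library left out, genes that rose numbered 130 to 1086 in knockout mice and 1220 to 2111 in the mean. Genes that fell numbered 1015 to 2535 in wild type, 17 to 960 in knockout mice and 1354 to 3140 in the mean. Receptors that rose in knockout mice numbered 0 to 2, and those that fell 1 to 7 in wild type, 0 to 3 in knockout mice and 4 to 8 in the mean.

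Knockout minus wild type called 3 genes higher in tumour, against 14 with no filter, 1 with the filter of 5 FPKM, under quantile normalization and after centring, 0 with the compared groups alone, 53 with weights and 18 without the 2 tumours, and 0 to 27 with 1 library left out. Lower there were 9 with weights, 1 without the 2 tumours and 0 to 2 with 1 library left out. The 1 gene higher in brain became 0 with a pseudocount of 0.1, the filter of 5 FPKM, the compared groups alone, without the 2 tumours and after centring, and 0 to 4 with 1 library left out. The 1 higher in the mean became 0 with no filter, quantile normalization and centring, 12 with weights, 7 without the 2 tumours and 0 to 15 with 1 library left out, while 1 was lower with weights or without the 2 tumours, and 0 to 2 with 1 library left out. The interaction called 1 gene higher, against 0 with no filter, quantile normalization and centring, 2 with weights, 7 without the 2 tumours and 0 to 12 with 1 library left out, and lower 2 with weights, 1 without the 2 tumours and 0 to 1 with 1 library left out.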

Other observations

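Adgrl1, a latrophilin of synapses, was at 2.81, 4.64 and 52.7 FPKM in the wild type tumours, 51.3 and 58.4 in the knockout tumours, and 62.3 to 160 in brain. As for Adgrb1 and Adgrb2, the first and the second wild type tumour were the lowest libraries.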
